A study of Mus musculus with 22 samples.

Results

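Globin and red cell genes were read in whole mouse brain on either side of birth. The 9 genes were the embryonic globins Hbb-y, Hbb-bh1 and Hba-x, the later globins Hba-a1 and Hbb-bt, and the erythroid genes Alas2, Slc4a1, Ahsp and Klf1. They were chosen by the gene name that the scanner files give a probe, including the older names Hbb-b1 for Hbb-bt and Eraf for Ahsp. All 9 were on the array, among 21041 genes with a symbol, through 13 of 41174 probes: 4 for Hbb-bt, 2 for Hbb-bh1 and 1 for each other gene.

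The 4 groups were knockout mice at postnatal day 1 (P1, n = 4), control mice at P1 (n = 4), knockout mice at embryonic day 15 (E15, n = 8) and control mice at E15 (n = 6). Knockout animals lack Agtr2, a gene on the X chromosome whose product is an angiotensin II receptor. Strain, allele, sex and perfusion are not given in the sources used here. Each of 22 Agilent arrays carried 1 knockout and 1 control brain in opposite dyes, and both dye orientations were run for all replicates except E15 replicates 3 and 4. Some E15 control animals were set against more than 1 knockout.

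Hemoglobin is built from alpha-like and beta-like globin chains, each bound to heme. In the mouse, primitive red cells from the yolk sac make embryonic chains, and definitive red cells from the fetal liver make the later chains, so that embryonic globin RNA is lost from blood as development goes on. Whole brain holds blood in its vessels, and globin and other red cell transcripts in its RNA can come from that blood. In bulk RNA of this kind, fewer cells of a type and less RNA per cell cannot be told apart.

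By the flags of the scanner software, spots clear of background made up 71.1% to 89.4% of an array at P1 and 74.7% to 89.2% at E15. Spots marked as outliers numbered 287 to 3343 per P1 array and 52 to 381 per E15 array, and were set to missing. No animal was lost in this way for any of the 9 genes. Agtr2 RNA itself differed by 0.11 (log2, SE 0.08, n = 4, adjusted p = 0.722) between P1 animals labelled knockout and controls and by -0.39 (SE 0.31, n = 8, adjusted p = 0.796) at E15. The part of the gene that was removed is not given, so this probe does not check the labels. Of 8 neuron markers on a list, 7 were on the array by name, and all 7 passed the filter on dim probes. No scan day held arrays of both ages, and the version of the scanner software differed between the ages. Array batch, software version and age therefore cannot be told apart in any comparison of P1 with E15, including these flag counts.

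The promoters of 5 genes that were lower at P1 are shown because they carry the short motifs by which red cell genes are commonly recognised. CACCC is bound by KLF1, CCAAT by general activators and GATAA by GATA1. Each run is the 120 bases before the annotated start in RefSeq, build GRCm38.p6, 5′ to 3′ on the gene's strand. Capitals mark these 3 motifs, read on either strand, and where the match is on the opposite strand the capitals show its reverse complement.
Hbb-y (chr7:103853208-103853327, minus strand): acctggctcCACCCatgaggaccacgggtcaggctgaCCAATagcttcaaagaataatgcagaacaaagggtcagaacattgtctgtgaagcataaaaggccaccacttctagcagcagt
Hba-x (chr11:32276480-32276599, plus strand): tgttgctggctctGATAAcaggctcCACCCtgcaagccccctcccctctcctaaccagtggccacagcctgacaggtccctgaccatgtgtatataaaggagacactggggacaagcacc
Hba-a1 (chr11:32283552-32283671, plus strand): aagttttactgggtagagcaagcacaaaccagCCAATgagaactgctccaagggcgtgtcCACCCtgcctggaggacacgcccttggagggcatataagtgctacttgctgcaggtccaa
Hbb-bt (chr7:103813924-103814043, minus strand): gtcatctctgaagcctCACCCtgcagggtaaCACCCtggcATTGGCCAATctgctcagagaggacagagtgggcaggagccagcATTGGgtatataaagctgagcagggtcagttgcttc
Alas2 (chrX:150547297-150547416, plus strand): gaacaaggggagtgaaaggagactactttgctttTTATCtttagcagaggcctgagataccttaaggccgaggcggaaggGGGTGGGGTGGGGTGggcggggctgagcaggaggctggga

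Sequence was available for 6 of the 9 genes, the 5 above and Klf1. In the window from 250 bases before to 50 after the start, all 6 held CACCC, all 6 held GATAA and 4 held CCAAT. Among the 32851 promoters of the same table, 57.5% held CACCC, 25.4% GATAA and 37.4% CCAAT. Hbb-bt had 2 CACCC copies in the stretch shown, starting 104 and 89 bases before the start. Hbb-y had 1, starting 111 bases before it. These matches are letters in a window and not measured sites.

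Among the globins, the embryonic and the later chains were all lower in control brains at P1 than at E15. The levels of Hba-a1, Hbb-bt and Hbb-y were 4.03-fold to 4.41-fold lower there. Of the erythroid genes Alas2, Ahsp and Slc4a1 were lower too, and Klf1, an activator of red cell genes, did not pass the test. In all, 8 of 9 genes passed the test downward in knockouts, against 15.2% of 25475 features called lower, and the same 8 in controls, against 22.7%. With scan day as a random block, Hbb-bh1, Hba-x, Hba-a1 and Hbb-bt lost their call in knockouts (adjusted p = 0.0609, 0.0731, 0.0532 and 0.0832), at changes of -0.42, -1.01, -1.48 and -1.32 that were no smaller than without the block. The median change of the 9 genes was -0.94 in knockouts (all features -0.07) and -0.99 in controls (all features -0.07). Every P1 knockout lay below every E15 knockout for 6 genes (9.38% of features), and every P1 control below every E15 control for 8 (18.1%). Both channels came from the same arrays, so the knockout values are not a repeat on independent slides.

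Hbb-y encodes the beta-like chain epsilon-y of primitive red cells. Its log2 intensity was 6.95, 7.04, 6.94 and 6.77 in the P1 knockouts and 6.96, 6.95, 7.02 and 6.63 in the P1 controls. At E15 it ran from 8.67 through a median of 8.99 to 10.19 in knockouts, and from 8.03 through 8.86 to 9.87 in controls. Every P1 brain lay below every E15 brain. The P1 minus E15 change was -2.21 in knockouts (SE 0.23, adjusted p = 2.33e-05) and -2.01 in controls (SE 0.29, adjusted p = 4.26e-04), a level 4.03-fold lower in P1 controls.

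Hba-x encodes zeta, the alpha-like embryonic chain. P1 knockouts gave 6.29, 6.22, 6.28 and 6.12 and P1 controls 6.14, 6.23, 6.25 and 6.10. At E15 the probe spread widely, from 6.50 (median 7.23) to 8.25 in knockouts and from 6.48 (median 6.95) to 7.81 in controls. The lowest E15 brains therefore lay just above the P1 brains. The change was -0.98 in knockouts (SE 0.26, adjusted p = 0.0135) and -0.90 in controls (SE 0.24, adjusted p = 0.0142).

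Hbb-bh1 encodes an early embryonic beta-like chain (beta-H1). Its probe was dim, between 6.02 and 6.47 in P1 knockouts, 6.02 and 6.34 in P1 controls, 6.54 and 6.83 in E15 knockouts and 6.48 and 6.73 in E15 controls. The ages did not overlap in either genotype. The change was -0.42 in knockouts (SE 0.10, adjusted p = 0.00639) and -0.39 in controls (SE 0.08, adjusted p = 0.00412). A second Hbb-bh1 probe gave -0.76 in knockouts and -0.58 in controls. It was well above background on only 4 of 8 P1 arrays in the knockout channel and 3 in the control channel, so its P1 level is partly a floor.

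**Figure D1:**
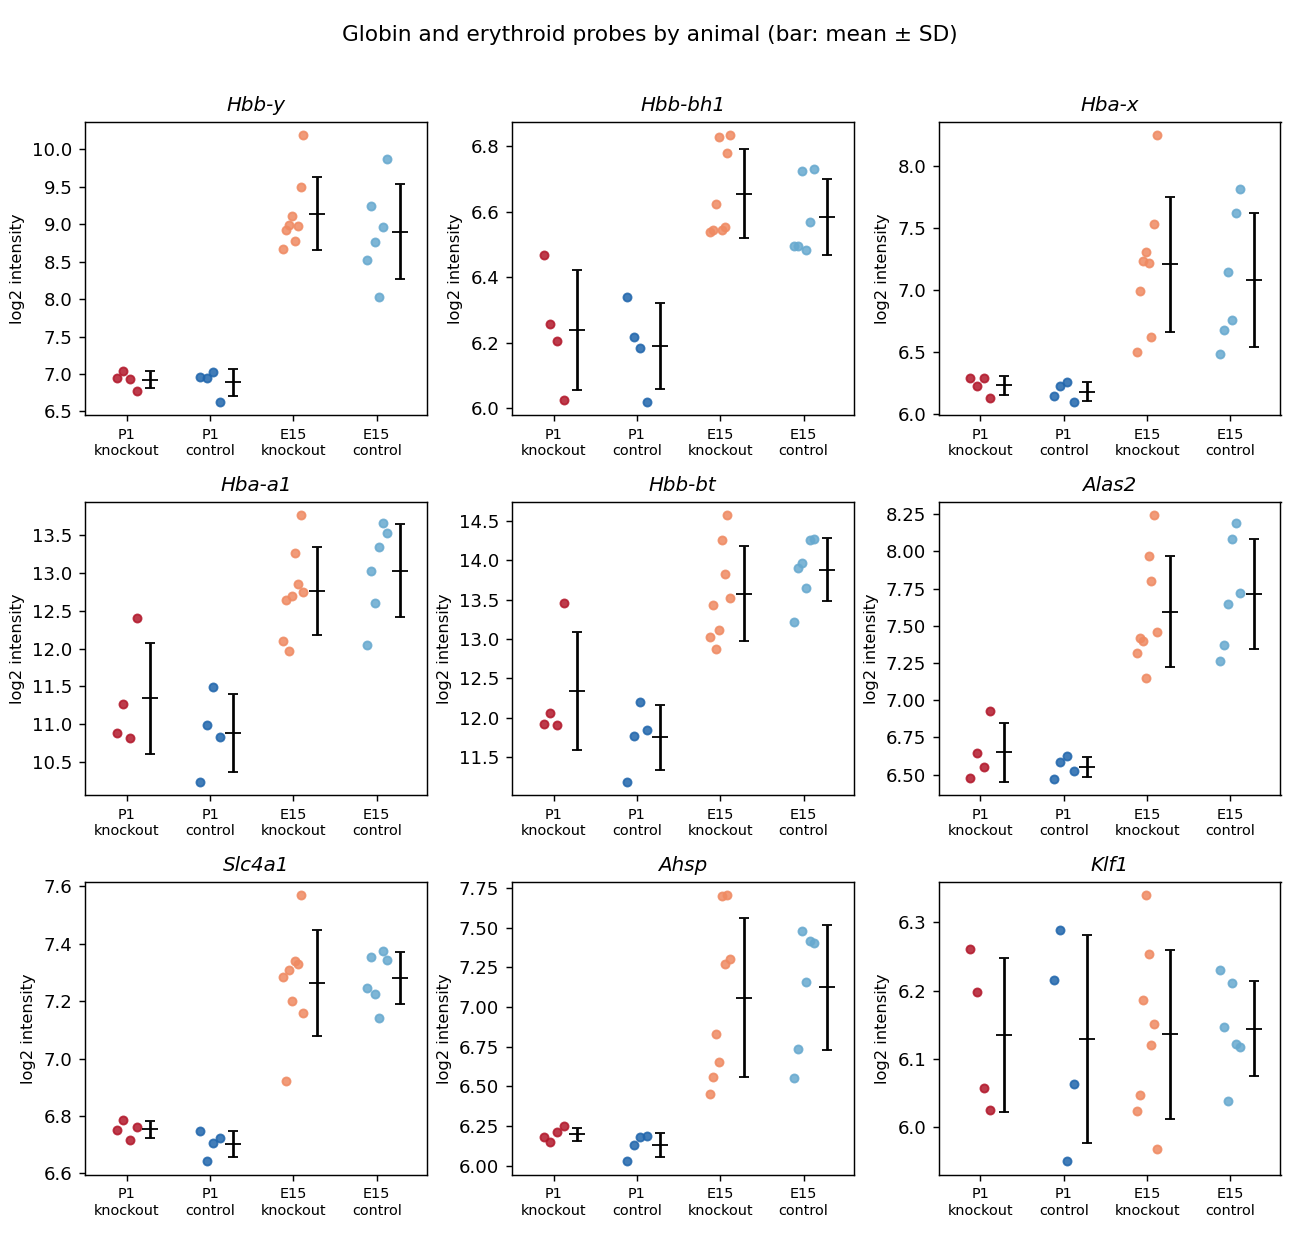
Log2 intensity (vertical axes, each with its own range) of the 9 genes in each brain, with P1 knockout, P1 control, E15 knockout and E15 control from left to right; points are animals and bars the mean ± SD (n = 4, 4, 8 and 6). For Hbb-y all P1 brains lay at or below 7.04 and all E15 brains at or above 8.03, while the 4 groups overlapped for Klf1, and P1 knockout replicate 4 stood high for Hba-a1 and Hbb-bt.

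The later globins were bright at both ages. Hba-a1, the alpha chain of fetal and adult hemoglobin, gave 10.89, 11.26, 10.82 and 12.40 in P1 knockouts and 10.24, 10.98, 11.49 and 10.84 in P1 controls. E15 knockouts ran from 11.97 (median 12.72) to 13.76 and E15 controls from 12.05 (median 13.18) to 13.65. The ages were apart in controls, and in knockouts replicate 4 at P1 reached into the E15 range. The change was -1.41 in knockouts (SE 0.35, adjusted p = 0.00972) and -2.14 in controls (SE 0.33, adjusted p = 6.20e-04), a level 4.41-fold lower in P1 controls. Because 3 E15 arrays had this spot marked as an outlier, some E15 animals rest on fewer arrays.

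Hbb-bt, a beta chain of definitive red cells, gave 11.92, 12.06, 11.90 and 13.45 in P1 knockouts and 11.19, 11.77, 12.20 and 11.84 in P1 controls. E15 knockouts ran from 12.87 (median 13.48) to 14.57 and E15 controls from 13.22 (median 13.93) to 14.27. Again only replicate 4 of the P1 knockouts lay among E15 brains. The spot used was marked as an outlier on 2 E15 arrays. The change was -1.24 in knockouts (SE 0.36, adjusted p = 0.0216) and -2.13 in controls (SE 0.23, adjusted p = 7.06e-05). The knockout value was -1.61 without P1 replicate 4, and it lost its call without P1 replicate 1, 2 or 3 (adjusted p = 0.0693, 0.0663 and 0.0752), at changes of -1.10, -1.15 and -1.10. All 4 probes of the gene were lower at P1. In knockouts they gave -1.24, -2.35, -1.43 and -1.71, and in controls -2.13, -3.04, -2.20 and -2.24.

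The near-identical copies Hba-a2 and Hbb-bs have no probe of their own by name, and 2 of the 4 Hbb-b1 probes also list an Hbb-b2 accession. RNA of these copies cannot be told apart from Hba-a1 and Hbb-bt here. No probe of the 9 genes was saturated on any array. The files place the Hbb-y probe at chr7:97965256-97965315 and the probe used for Hbb-bt at chr7:97920274-97920332, on a build they do not state. The Hba-x and Hba-a1 probes lie at chr11:32172463-32172522 and chr11:32178570-32178751 in the same annotation.

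Among the erythroid genes, Alas2 makes the red cell form of the first enzyme of heme synthesis. Its log2 intensity was 6.48, 6.64, 6.55 and 6.93 in P1 knockouts and 6.47, 6.59, 6.63 and 6.52 in P1 controls. E15 knockouts ran from 7.15 (median 7.44) to 8.24 and E15 controls from 7.26 (median 7.68) to 8.19, with no overlap between the ages. The change was -0.94 in knockouts (SE 0.19, adjusted p = 0.00274) and -1.16 in controls (SE 0.17, adjusted p = 5.25e-04).

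Ahsp, the chaperone that holds free alpha chains, lay between 6.15 and 6.25 in P1 knockouts, 6.03 and 6.18 in P1 controls, 6.45 and 7.71 in E15 knockouts and 6.55 and 7.48 in E15 controls. It changed by -0.86 in knockouts (SE 0.24, adjusted p = 0.0166) and -0.99 in controls (SE 0.18, adjusted p = 0.00181). E15 animals first scanned on day 3 lay between 6.45 and 6.83 for Ahsp, and those first scanned on day 1 or 2 between 7.16 and 7.71. For Alas2 these ranges were 7.15 to 7.42 and 7.46 to 8.24, and for the other genes they overlapped. The part of scan day in these levels was not tested. The anion exchanger Slc4a1 (band 3), which spans the red cell membrane, lay between 6.71 and 6.79 in P1 knockouts, 6.64 and 6.75 in P1 controls, 6.92 and 7.57 in E15 knockouts and 7.14 and 7.37 in E15 controls. It changed by -0.51 in knockouts (SE 0.10, adjusted p = 0.00218) and -0.58 in controls (SE 0.06, adjusted p = 8.08e-05). For Ahsp and Slc4a1 the ages did not overlap in either genotype.

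Klf1 had values from 6.02 to 6.26 in P1 knockouts, 5.95 to 6.29 in P1 controls, 5.97 to 6.34 in E15 knockouts and 6.04 to 6.23 in E15 controls, and all groups overlapped. The change was -0.00065 in knockouts (95% interval -0.18 to 0.18) and -0.01 in controls (-0.18 to 0.15). The probe was well above background for knockouts on 6 of 8 P1 arrays and 10 of 14 E15 arrays, and for controls on 5 of 8 P1 arrays and 12 of 14 E15 arrays. At so dim a probe the constant of 50 added before the log shrinks any change.

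**Figure D2:**
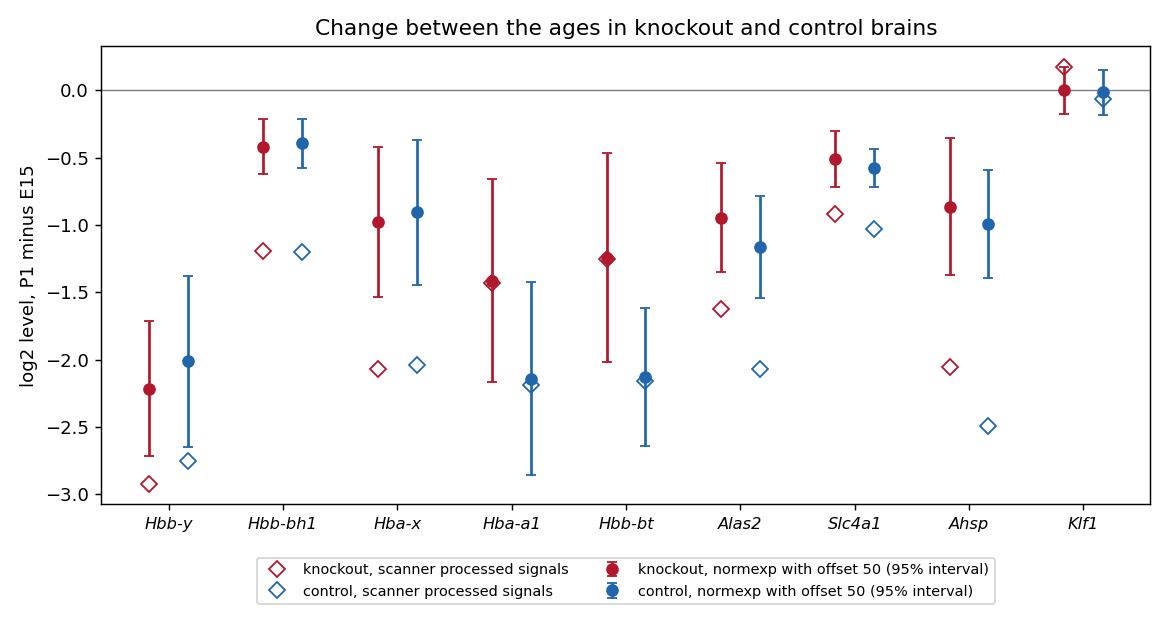
Log2 level at P1 minus that at E15 (vertical axis) of the 9 genes in knockout and control brains; filled circles are the fitted change with its 95% interval from limma, and open diamonds the change from the scanner's processed signals. Hba-a1 and Hbb-bt stood at -1.41 and -1.24 in knockouts and at -2.14 and -2.13 in controls, and the diamonds lay below the circles by most for Ahsp (-2.49 in controls) and above the circle for Klf1 in knockouts (0.17).

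The size of the change at dim probes differed between ways of processing the signals. With the scanner software's own background-subtracted and dye-normalized signals, the P1 minus E15 change in controls was -2.75 for Hbb-y, -2.04 for Hba-x, -1.20 for Hbb-bh1, -2.49 for Ahsp and -2.07 for Alas2. For the bright Hba-a1 and Hbb-bt it was -2.19 and -2.16, close to the values above. The 8 called genes kept their direction under this setting. The P1 arrays were read with version 8.5.1.1 of that software and the E15 arrays with 8.1.1.1. Software version and age therefore cannot be told apart in these values.

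The mean fall of the embryonic chains was smaller than that of the later chains in P1 controls. Each animal's change was taken against the mean of the E15 controls, averaged over Hbb-y, Hbb-bh1 and Hba-x and over Hba-a1 and Hbb-bt. The embryonic chains then stood at -1.06 (SD 0.11, n = 4) in P1 knockouts and -1.10 (SD 0.11, n = 4) in P1 controls. The later chains stood at -1.61 (SD 0.74) in P1 knockouts and -2.13 (SD 0.46) in P1 controls.

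The embryonic minus the later change was 1.1, 0.77, 1.04 and -0.69 in P1 knockouts and 1.70, 1.02, 0.57 and 0.84 in P1 controls. It ran from -0.31 (median 0.49) to 1.22 in E15 knockouts and from -0.47 (median 0.06) to 0.47 in E15 controls. All P1 controls lay above all E15 controls, and P1 knockout replicate 4 alone was below 0 among the P1 brains. The mean over P1 controls, 1.03, is a description with no test. It was 0.175 with the scanner's background-subtracted signals and 0.566 with a constant of 10. All 3 embryonic probes fell further under both settings, while Hba-a1 and Hbb-bt stayed at -2.19 and -2.16 with the scanner's signals. The change of Hbb-y minus that of Hbb-bt was 0.12 (SD 0.46) in P1 controls, and its direction turned with the scanner's signals, where Hbb-y changed by -2.75 and Hbb-bt by -2.16.

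**Figure D3:**
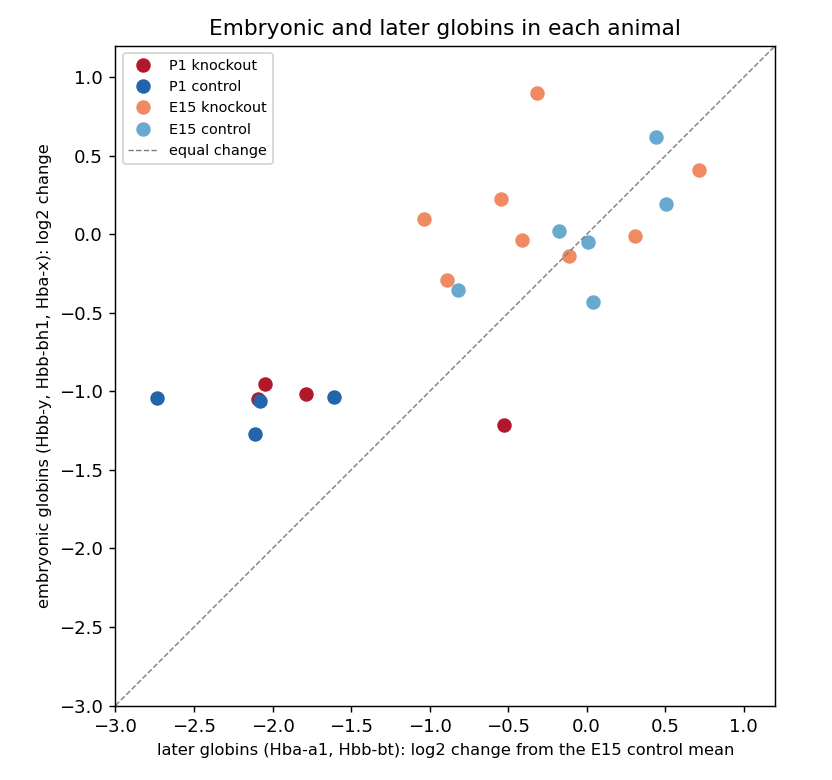
Each point is a brain, placed by its mean log2 change of the later globins (horizontal axis) and of the embryonic globins (vertical axis) against the mean of the E15 controls; the dashed line marks equal change. The P1 controls lie at a mean of -2.13 on the later axis and -1.10 on the embryonic axis, and P1 knockout replicate 4 lies to the right of the other P1 brains.

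Comparing knockouts with their paired controls asks whether loss of Agtr2 changed red cell RNA in the brain. None of the 9 genes passed the test at P1 or at E15 (limma, adjusted p = 0.614 to 0.986 at P1 and 0.802 to 0.976 at E15), and none had an unadjusted p under 0.05. Among all features 0% were called at P1 (0 of 24549, with 2304 at an unadjusted p under 0.05) and 0% at E15 (0 of 24106, with 1584). From the deposited log ratios and from the scanner's processed signals, 1 feature was called at E15. At P1 these p-values rest on 4 pairs of separate animals, as the labels number them. At E15 they rest on 8 knockout animals set against only 6 control animals. Some of those controls were shared between knockouts, and the sharing entered as a random block. E15 replicates 1 and 2 met a different control animal on each of their arrays. An E15 pair here is therefore 1 knockout with its control or controls.

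At P1 the later globins differed most between pairs. The log2 ratio of knockout over control for Hbb-bt was 0.74, 0.30, -0.30 and 1.61 in replicates 1 to 4, and for Hba-a1 it was 0.65, 0.28, -0.67 and 1.57. In both genes replicate 3 lay below 0 and replicate 4 far above the others. The means were 0.59 for Hbb-bt (SE 0.31, 95% interval -0.21 to 1.38, adjusted p = 0.614) and 0.45 for Hba-a1 (SE 0.36, interval -0.46 to 1.37, adjusted p = 0.745). Single pairs moved both means: without replicate 4 they were 0.245 for Hbb-bt and 0.084 for Hba-a1, and without replicate 3 they were 0.881 and 0.830.

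The 2 dye orientations of a pair gave different ratios. For Hbb-bt, the standard and the dye-swapped array gave 1.02 and 0.45 in replicate 1, 0.81 and -0.22 in replicate 2, 0.22 and -0.81 in replicate 3 and 1.44 and 1.78 in replicate 4. Replicate 4 was thus high in both orientations. The other 3 Hbb-bt probes gave 1.16, 1.27 and 0.62 in that replicate. In replicate 3 they gave 0.10, -0.09 and 0.0044, against a mean of -0.30 from the probe used.

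The other genes were close to 0 at P1. Hbb-y had -0.0068, 0.09, -0.08 and 0.14, with a mean of 0.04 (95% interval -0.10 to 0.17). Alas2 had 0.0049, 0.06, -0.08 and 0.41, again highest in replicate 4, with a mean of 0.10 (interval -0.13 to 0.33). Hba-x, Hbb-bh1, Slc4a1, Ahsp and Klf1 had single values between -0.09 and 0.15. All 9 means lay above 0, the median being 0.05 (all features 0.0088).

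**Figure D4:**
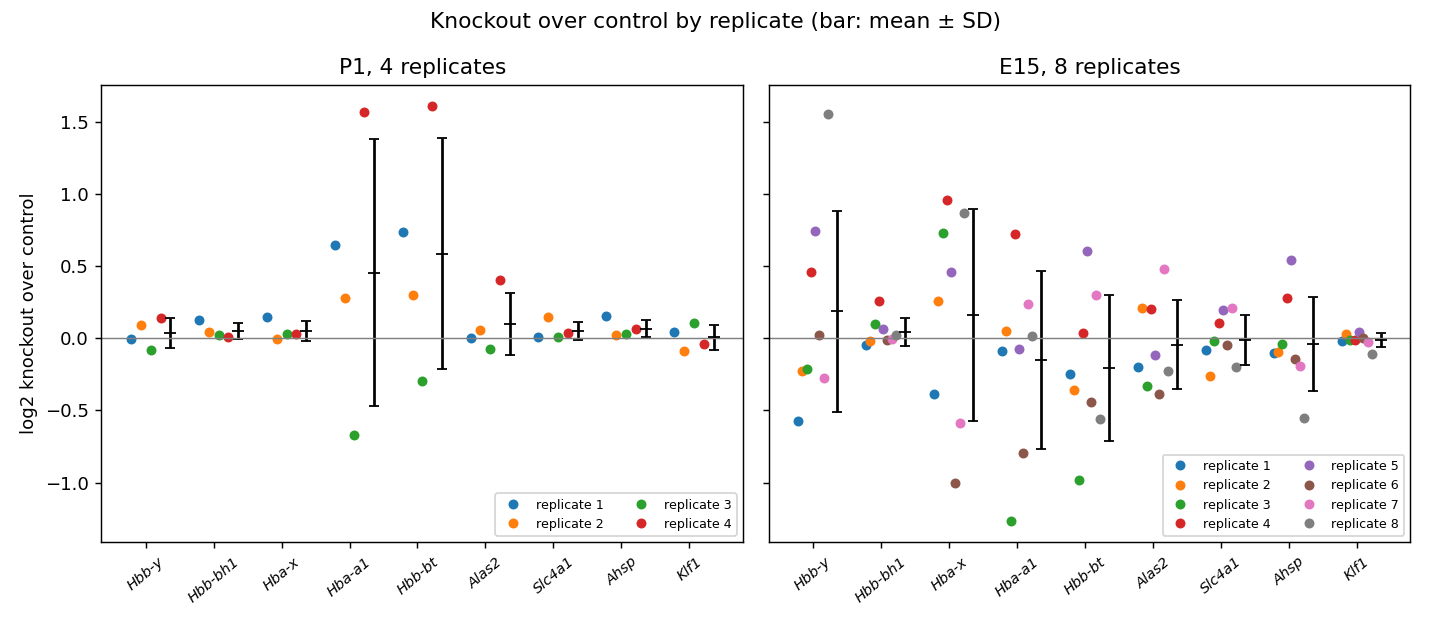
Log2 knockout over control (vertical axis) of the 9 genes, with a coloured point for each replicate pair at P1 (n = 4, left) and E15 (n = 8, right) and a bar for the mean ± SD. Replicate 4 at P1 reached 1.57 for Hba-a1 and 1.61 for Hbb-bt, and replicate 8 at E15 reached 1.55 for Hbb-y.

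At E15 the embryonic globins Hbb-y and Hba-x varied most among pairs. Hbb-y ran from -0.57 through a median of -0.10 to 1.55, with 4 of 8 pairs above 0, and averaged 0.19 (SE 0.23, adjusted p = 0.854, 95% interval -0.34 to 0.72). Hba-x ran from -1.0 through 0.36 to 0.96, with 5 above 0, and averaged 0.15 (SE 0.24, adjusted p = 0.891). Of the pairs, replicate 8 was highest for Hbb-y, at 1.70 and 1.41 on its 2 arrays. In the same pair Hba-x was 0.87, while Hbb-bt was -0.56 and Ahsp -0.55. Hba-a1 was 0.018 there, and Hbb-bh1 was 0.021 from the probe used and 0.79 from its second probe.

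The later globins had means below 0 at E15 that did not pass the test. Hba-a1 ran from -1.27 through -0.03 to 0.72 (mean -0.16, SE 0.20, adjusted p = 0.861) and Hbb-bt from -0.98 through -0.30 to 0.60 (mean -0.20, SE 0.16, adjusted p = 0.802). Outlier spots left Hba-a1 in replicates 1, 6 and 7 and Hbb-bt in 1 and 7 with the dye-swapped array alone, uncorrected for dye. Replicate 1 thus met 1 control animal for these genes. The remaining genes ran from -0.39 to 0.48 for Alas2, -0.55 to 0.54 for Ahsp, -0.26 to 0.21 for Slc4a1, -0.04 to 0.26 for Hbb-bh1 and -0.11 to 0.04 for Klf1. The second Hbb-bh1 probe ran from -0.04 to 0.79. Pairs lay on both sides of 0 for every gene.

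At E15, Hbb-y and Hba-x differed between pairs grouped by the day of first scan. Hbb-y averaged 1.15 in the pairs first scanned on day 1 (replicates 5 and 8), -0.13 on day 2 (6 and 7) and -0.14 on day 3 (1 to 4). Hba-x averaged 0.66, -0.79 and 0.39 in those groups. From the probes used, Hbb-bh1 averaged 0.042, -0.010 and 0.073, and Hbb-bt 0.024, -0.07 and -0.39. The second Hbb-bh1 probe gave 0.24 and 0.79 in replicates 5 and 8 and -0.04 and -0.02 in 6 and 7. In replicates 1 to 4 that probe gave 0.02, 0.02, 0.24 and 0.54. Replicates 5 and 8 each had 1 array on day 1 and 1 on day 2. In that order, Hbb-y was 0.99 and 0.50 in replicate 5 and 1.70 and 1.41 in replicate 8. Hba-x was 0.81 and 0.11 in replicate 5 and 0.67 and 1.06 in replicate 8. The median ratio of a list of meninges markers was 2.75 in replicate 8, which was highest for Hbb-y, and between -2.13 and 0.50 in the other 7. It was -1.43 in replicate 1, which was lowest for Hbb-y (-0.57, from -1.20 and 0.06 on arrays with different control animals). The lowest, -2.13, was in replicate 4, where Hbb-y was 0.46 and Hba-x 0.96. In replicate 5, where Hbb-y was 0.75, it was 0.18. The part of scan day or of meninges markers in the globin values was not tested.

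The knockout effect was also compared between the ages. None of the 9 genes was called, against 0.374% of 23523 features. The largest difference, P1 minus E15, was 0.79 for Hbb-bt (SE 0.34, 95% interval 0.03 to 1.54, unadjusted p = 0.0417, adjusted p = 0.786), followed by 0.61 for Hba-a1 (interval -0.28 to 1.51, adjusted p = 0.883). Without P1 replicate 4 these were 0.444 for Hbb-bt and 0.241 for Hba-a1, and without P1 replicate 3 they were 1.08 and 0.991.

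The spread between pairs was wide for some of the 9 genes and narrow for others. At P1 the SD of the 4 ratios was 0.925 for Hba-a1 and 0.803 for Hbb-bt, above that of 99.2% and 98.9% of features, whereas Hbb-y had 0.102 (39.0%). The P1 SD of Hbb-bh1, Hba-x, Slc4a1, Ahsp and Klf1 was larger than that of only 14.5% to 32.4% of features, and that of Alas2 was larger than that of 73.6%. At E15 the SD of the 8 ratios was 0.734 for Hba-x (98.0%), 0.697 for Hbb-y (97.7%), 0.616 for Hba-a1 (96.7%) and 0.504 for Hbb-bt (93.5%). It was lower for Ahsp (77.5%), Alas2 (74.5%), Slc4a1 (47.1%), Hbb-bh1 (25.6%) and Klf1 (3.80%). The Hbb-bh1 value is that of its brighter probe, and the second probe ran more widely at E15, from -0.04 to 0.79. The median SD of all features was 0.127 at P1 and 0.187 at E15.

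After subtracting each group's mean, the 2 later globins went together over the 22 animals (Pearson r = 0.916), and Alas2 with them (0.775 with Hba-a1, 0.752 with Hbb-bt). Hbb-y went with Hba-x (0.765) and Hbb-bh1 (0.590) and little with Hbb-bt (0.228). These values are descriptions, since animals share arrays, scan days and, at E15, partners on the slide. Among the features that followed Hbb-y over all 22 animals, those with the highest r were Rin3 (0.935), Sulf1 (0.923), Mcm4 (0.922), 2310067E19Rik (0.920), Gemin5 (0.920), Mdk (0.918), Eif4b (0.918) and Gulp1 (0.916), out of 18319. This likeness holds the difference between the ages. Within groups, those most like Alas2 were BC031181 (0.877), Qpctl (0.868), Cox6b1 (0.868), Trmu (0.863), Polr2j (0.860), Znhit1 (0.860), Nfkbib (0.851) and Ten1 (0.851).

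Other genes of the red cell pathways were read from lists in the same control comparison, P1 against E15. None of any list was called between knockouts and controls at either age. Of 8 genes of heme synthesis measured, 1 rose and 2 fell (median -0.33), among them Ppox, the penultimate enzyme of the pathway, at -0.38 (adjusted p = 0.00601). Of 16 red cell membrane genes 3 rose and 5 fell (median -0.19), the glucose transporter Slc2a1, which brain vessels also carry, at -1.35 (adjusted p = 8.41e-06). Of 15 erythroid regulators 4 rose and 2 fell (median -0.01). The 2 that fell were E2f2 at -0.87 and Gfi1b, a repressor of blood lineages, at -0.67 (adjusted p = 2.65e-05 and 0.00117). With no animal missing, Nr2c2 (0.56) and Nfe2 (0.37) rose among the regulators, and Sptb (0.56) and Ermap (0.30) among the membrane genes. The other genes that rose in these 3 lists had lost animals to spots marked as outliers.

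Of 12 genes of iron handling and erythropoietin signalling, 3 rose and 5 fell (median -0.16), among them the ferritin light chain Ftl1 at -1.46, the mitochondrial iron importer Slc25a37 at -1.03 and heme oxygenase Hmox1 at -0.79 (adjusted p = 4.09e-06, 3.94e-04 and 1.34e-04). The 3 that rose were Fth1 (0.60), Steap3 (0.43) and Epo (0.38). Of 13 red cell enzymes none rose and 2 fell (median -0.15). Of 7 genes of hemoglobin clearance 2 rose and 2 fell (median -0.03). Among 4 other globins Hbq1a, a theta-like alpha globin, was called higher, and Ngb (-0.72, adjusted p = 0.14), Cygb (0.09) and Mb (-0.05) were not. For all the lists, these counts stand beside 15.5% of all features called higher and 22.7% called lower.

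Hbq1a rose by 2.11 in controls (SE 0.29, adjusted p = 6.89e-04), but only P1 replicates 3 and 4 were measured. They gave 7.34 and 8.63 in knockouts and 7.50 and 8.92 in controls, against 6.00 to 6.19 in E15 controls. The spots of the other P1 animals were marked as outliers. Of 1528 features tested with such a P1 control missing, 83.6% were called higher and 0.524% lower, against 11.1% and 24.1% of 23947 features with none missing. Leaving out features that lost an animal, the counts of genes that rose were 0 for other globins, heme synthesis, lymphocyte and fetal liver genes, 2 each for membrane, regulator, granulocyte and macrophage genes and 3 for neuron genes, and the counts of genes that fell stayed as given.

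Markers of other cells moved between the ages as well. In controls, 4 of 10 megakaryocyte genes fell (median -0.13), among them Pf4, a platelet chemokine, at -0.79. Of 9 endothelial genes 3 fell and 1 rose (median -0.23), with Cdh5, of vessel junctions, at -1.12. Of 9 meninges genes 4 fell (median -1.18), with Foxc1 at -1.18. Of 8 granulocyte genes 4 rose (median 0.18), of 10 macrophage genes 3 rose and 1 fell (0.07), of 9 lymphocyte genes 1 rose and 1 fell (-0.18), and of 9 fetal liver genes 2 rose and 1 fell (0.02). Of 7 neuron genes 4 rose (median 1.16), including Snap25, of synaptic vesicle fusion, by 1.26 and Syt1, its calcium sensor, by 1.16. The meninges markers' mean log2 intensity per animal was 7.83 to 8.41 in P1 knockouts, 7.95 to 8.34 in P1 controls, 8.40 to 11.41 in E15 knockouts and 8.45 to 11.05 in E15 controls. The part of these lists in the change of the red cell genes was not tested.

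**Figure D5:**
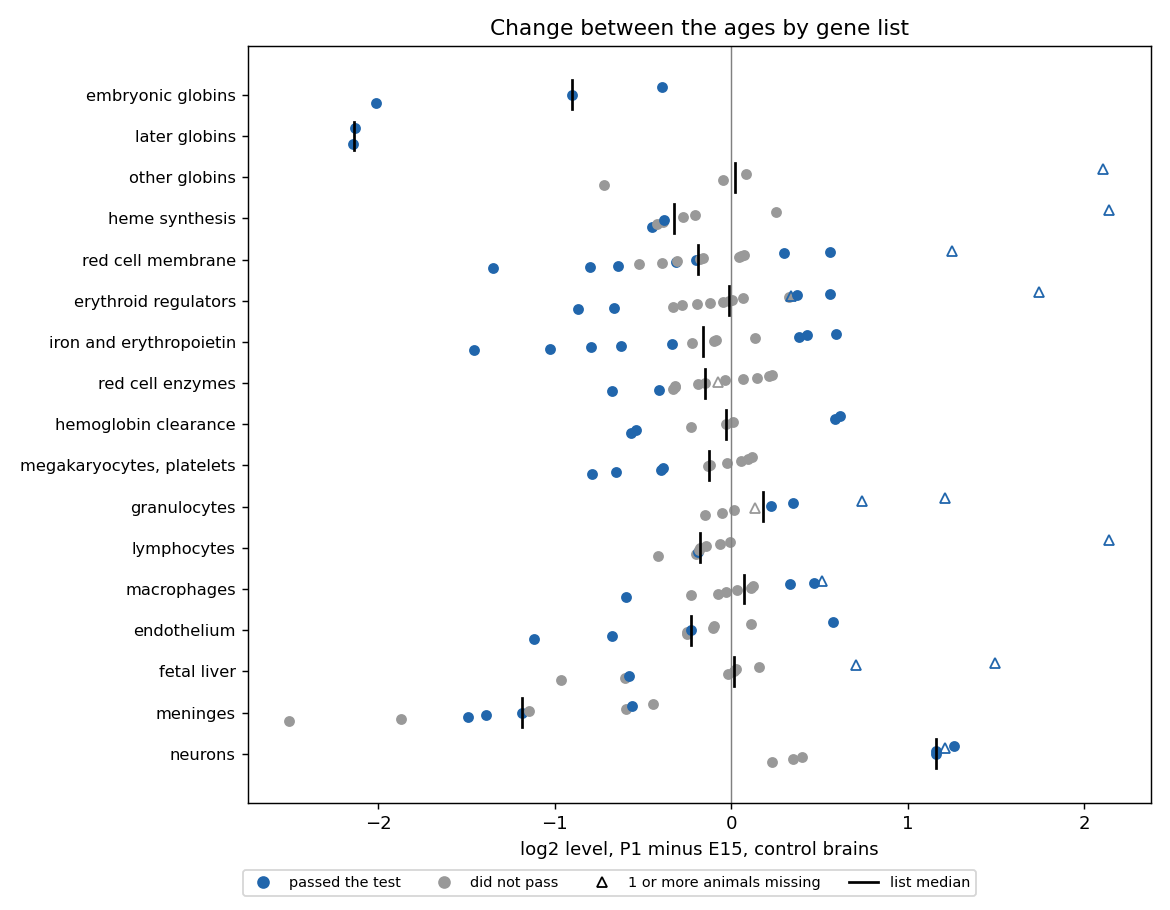
Log2 level at P1 minus that at E15 in control brains (horizontal axis) of each tested gene of the lists; blue symbols passed the test, grey ones did not, triangles had 1 or more animals missing, and the upright bar is the list median. The later globins lay at -2.14 and -2.13, the meninges median at -1.18 and the neuron median at 1.16, and the highest symbols, such as Hbq1a at 2.11, were triangles.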

How the data were processed

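Total RNA of frozen whole-brain slices was amplified and labelled by Agilent's linear method, per the labels' protocols, and hybridised to 22 two-colour arrays. Per the file headers, the authors scanned them and read spots with Feature Extraction 8.5.1.1 (P1) and 8.1.1.1 (E15). The deposited intensity values are mean spot and median background intensities. The deposited log10 ratios are red over green after the software's dye normalization. The series' deposited matrix of log10 ratios matched them to within 0.00499 and served as an alternative, as did processed intensities.

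Here, spots were corrected with normexp (offset 50), normalized by loess within arrays and, for levels, by Aquantile between them (limma 3.58.1 and statmod 1.5.0 in R 4.3.3). Spots marked as outliers were left out. A gene was read from its brightest probe. Features well above background in at least 50% of an age's channels were tested with lmFit and eBayes, Benjamini-Hochberg threshold 0.05. Knockout over control was averaged over dye swaps per replicate. For E15 replicates 3 and 4, with 1 array each, the mean dye effect of the others was subtracted. No dye effect was subtracted where an outlier spot left 1 array of another replicate. Shared E15 control animals entered as a random block (consensus correlation 0.0494), estimated on every 8th feature. The same replicate numbers at both ages mark no shared animal.

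The array names of 21445 probes were updated through accessions, 5431 through symbols and 4636 through synonyms, with 1928 left as in the files and 7734 unnamed. Promoters are RefSeq's. The genes and lists were chosen with earlier results of these data known. Genes that rose with no animal missing are named in the membrane, regulator and iron lists. Otherwise, named genes were every member, up to 3 called genes per list by size of change, and the 8 features most like Hbb-y and Alas2. A gene that this rule names is not reported here. Methods were tested on simulated data. The number of arrays limits precision. Plots used matplotlib 3.10.9 (Python 3.11.15). Alternatives covered background, normalization, probes, filter, outlier and saturated spots, scan day, shared controls and left-out animals.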

Additional observations from a re-analysis of the deposited data

Results flagged for a closer look

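Of 54 groups of 4 to 8 samples examined, 3 held a sample far from the rest of its group, and chance alone gives about 1 in 20. Hbb-bt had a level of 13.45 in P1 knockout replicate 4, against 11.90 to 12.06 in the other P1 knockouts, and the same brain was highest for Hba-a1. For Hbb-bh1, the log2 ratio of knockout over control in E15 replicate 4 was 0.258, the highest of 8, on a replicate with 1 array. The second Hbb-bh1 probe gave 0.54 there and was highest in replicate 8 (0.79). For Klf1, the ratio in E15 replicate 8 was -0.112, the lowest of 8.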

How the results depend on the processing

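The count of 8 of 9 genes lower at P1 held in controls under all alternatives run and without each animal (8). In knockouts it was 4 with scan day as a random block and 7 to 8 without single animals: Hbb-bh1, Hba-x, Hba-a1 and Hbb-bt had adjusted p = 0.0609, 0.0731, 0.0532 and 0.0832 there, at changes of -0.42, -1.01, -1.48 and -1.32, no smaller than without the block. The count of knockout over control calls stayed at 0. The embryonic minus later shift was 0.175 with scanner-processed signals and 1.79 with median centring of channels, and 0.810 to 1.19 without single animals.

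Some values near 0 changed sign, and the cause was not tested. The P1 minus E15 change of Klf1 in knockouts was 0.17 with scanner-processed signals, 0.024 with an offset of 10 (chosen after seeing the data), 0.0052 with quantile normalization, 0.013 with median centring of channels and 0.0015 with the scan day block, and in controls 0.0032 with median centring. Median centring within arrays gave knockout over control of 0.020 for Alas2 and 0.033 for Slc4a1 at E15, -0.0049 for Klf1 at P1, and age differences of -0.026 for Hbb-bh1 and -0.011 for Slc4a1. Means over probes gave an age difference of -0.10 for Hbb-bh1, and P1 minus E15 changes in controls of -0.14 for Mmp9 (granulocyte list) and -0.029 for Apob (fetal liver list), against 1.21 and 1.49 from the brightest probe. Without E15 replicates 3 and 4, Hba-x had -0.077 at E15 and an age difference of 0.13. Among E15 pairs first scanned on day 1 Hbb-bt had 0.024, and among those of day 3 Hbb-y had -0.14 and Ahsp 0.0097. Among those of day 2 Hbb-y had -0.13, Hbb-bh1 -0.010, Hba-x -0.79, Alas2 0.044 and Slc4a1 0.082.

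Without single replicates, knockout over control at E15 ran from -0.12 to 0.0026 for Alas2, -0.043 to 0.022 for Slc4a1, -0.12 to 0.039 for Ahsp and -0.022 to 0.0012 for Klf1, and at P1 from -0.0050 to 0.16 for Alas2 and -0.028 to 0.038 for Klf1. Age differences ran from -0.26 to 0.030 for Hbb-y, -0.022 to 0.035 for Hbb-bh1, -0.28 to 0.039 for Hba-x and -0.016 to 0.051 for Klf1. The Klf1 change with age ran from -0.043 to 0.036 in knockouts and -0.068 to 0.045 in controls. With the replicate number as a block, a pairing across ages that no label states, the age difference was 0.17 for Hbb-y and -0.025 for Hbb-bh1, and 0 features were called, against 88 without it.

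Over all features, the 88 calls of the age difference became 163 with no filter and 0 with scanner-processed signals, outlier spots kept or an offset of 10. With the scan day block, 3193 features were called between the ages in knockouts and 5410 in controls, against 7206 and 9712. Median centring of channels moved the control split to 2850 higher and 6553 lower, against 3937 and 5775. Signal over background limits the dim probes of Hbb-bh1, Hba-x, Ahsp and Klf1 at P1.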
